A study of Mus musculus with 6 samples.

Results

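A group of 10 genes of the endoderm lineage was followed in mouse embryonic stem cells with and without E-cadherin. They were 5 transcription factors (Sox17, Sox7, Gata4, Gata6 and Foxa2), the receptor gene Pdgfra, the adaptor gene Dab2, and 3 genes of an endocytic receptor complex (Cubn, Lrp2 and Amn). The genes were chosen by symbol, with their difference between the 2 genotypes already known, and all 10 of them were found among the 55401 genes of the count table. Their differences between genotypes are therefore given as a description, and nothing is supported with them.

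The samples were 3 libraries of WT V6.5 cells and 3 libraries of V6.5 cells with the genotype Cdh1-/-, called knockout here. V6.5 is an embryonic stem cell line from a hybrid mouse embryo, and Cdh1 encodes E-cadherin, the protein that joins neighbouring epithelial and stem cells. Culture conditions, the exact Cdh1 lesion and the number of knockout clones are not given in the sources used here. Nothing in the labels says that replicates A, B and C came from separate cultures, so p-values measure the spread between these libraries, which may be technical.

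As background, the primitive endoderm is the layer of the blastocyst that separates from the epiblast, the source of embryonic stem cells, and goes on to form the yolk sac. GATA factors, SOX17 and SOX7 act in this layer, and the receptor PDGFRA is one of its early surface markers. The yolk sac takes up maternal proteins and vitamins through cubilin, amnionless and megalin, with DAB2 as the adaptor that links such receptors to clathrin. FOXA2 and SOX17 are also used by the definitive endoderm, which forms the gut.

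Total counts lay between 18020719 and 23381942 per library. The targeted gene Cdh1 stood at 537 to 571 CPM (counts scaled to the library size after TMM normalisation) in WT and at 166 to 183 CPM in the knockout libraries, so the labels and the counts matched. On the second principal component (20.9% of the variance), knockout replicate A stood apart at 43.5, against -25.8 to 9.0 in the other 5 libraries. Both libraries lettered A also held transcripts of liver and serum proteins. Albumin (Alb) was at 10.7 CPM in WT replicate A and 8.95 CPM in knockout replicate A, against at most 0.100 CPM in the other libraries. Haptoglobin (Hp) was at 10.1 CPM and 10.7 CPM in the A libraries and at most 0.300 CPM in the others. The part of these transcripts in the results below was not tested. For the 10 genes, results of the fit without the A libraries are given below.

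Stem cell identity genes were abundant in both genotypes. The summed level of 12 stem cell markers was 8900 to 9070 TPM (counts per exon length, scaled to a fixed total in each library) in WT and 9700 to 11200 TPM in the knockout. Klf4 (log2 fold change 1.12) and Tdgf1 (0.63) were called higher and Lin28a (-0.79) and Klf2 (-0.60) lower, while Pou5f1, Sox2 and Nanog did not pass edgeR's test. By contrast, the 10 endoderm genes together reached 48.5 to 70.7 TPM in WT and 87.9 to 177 TPM in the knockout. In bulk RNA, a change in the number of cells that express a gene and a change in its level per cell cannot be told apart.

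All 10 genes passed the filter on low counts, Foxa2 only through the knockout libraries, since no WT library reached the count needed. Of them, 9 were higher in the knockout at an adjusted p under 0.05 in edgeR's quasi-likelihood test, where 7.60% of the 17325 tested genes were called higher, 5.71% lower and 13.3% in either direction. Genes called higher outnumbered those called lower by 1317 to 990, but not with upper quartile scaling (1169 to 1174), and with library totals only the numbers were 1168 and 1158. The median log2 fold change of the 10 genes was 1.60, also with Foxa2 at its lower bound (range -0.31 to 2.18), against -0.007 over all tested genes. In 8 of them every knockout library lay above every WT library, a separation found for 15.7% of all tested genes. Because the genes were picked on this contrast, these counts carry no weight as evidence.

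**Figure D1:**
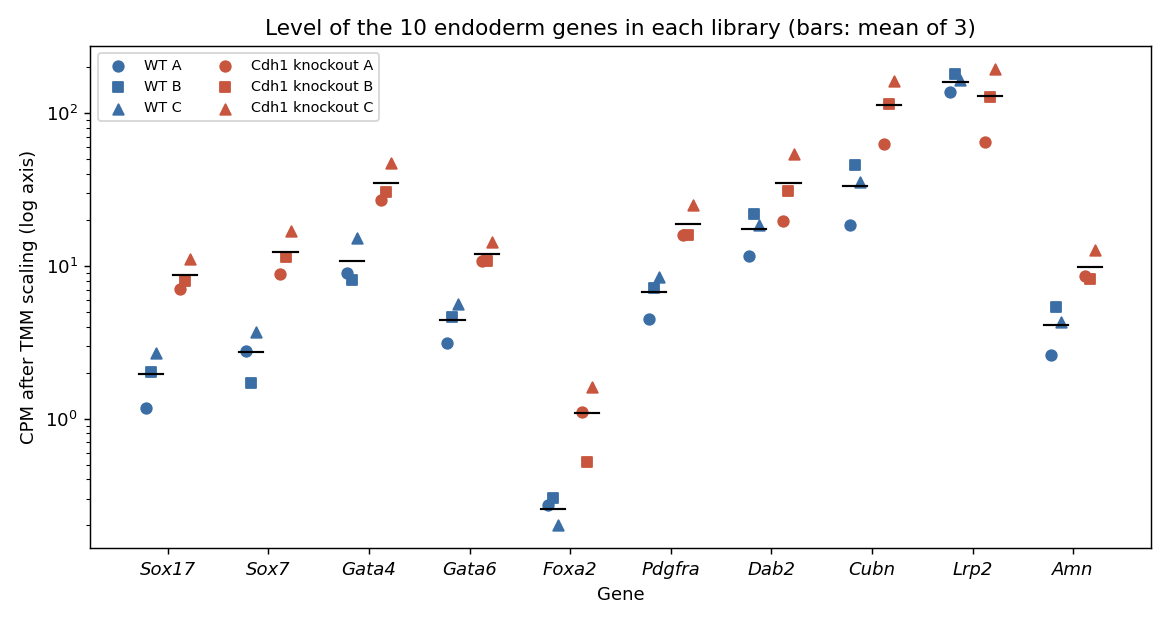
Level of each of the 10 genes in the 3 WT and 3 knockout libraries, in CPM on a log axis, with symbols for the replicate letter and bars for the mean of 3. The groups are separate for 8 genes and overlap for Dab2 and Lrp2, and the triangle of knockout replicate C is the highest knockout value for every gene.

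Sox17 and Sox7 encode related SOX factors of the endoderm and of blood vessels. Sox17 (ENSMUSG00000025902.13, chromosome 1, 4490931 to 4497354, minus strand, GRCm38) was at 1.17, 2.02 and 2.7 CPM in the WT libraries A, B and C, and at 7.02, 7.95 and 11.1 CPM in the knockout libraries in the same order of letters. The lowest knockout library was above the highest WT library, and the means differed 4.42-fold (1.96 ± 0.767 CPM against 8.67 ± 2.11 CPM, SD, n = 3 each). Sox7 (ENSMUSG00000063060.6, chromosome 14, 63943673 to 63950732, plus strand) was at 2.79, 1.72 and 3.70 CPM in WT and at 8.84, 11.5 and 16.9 CPM in the knockout. Here too the groups were separate, and the means differed 4.53-fold. Per length, the ratio of Sox7 to Sox17 was 1.91 ± 0.969 in WT and 1.75 ± 0.170 in the knockout, a difference smaller than the spread between WT libraries. The third member of their subfamily, Sox18, did not pass the test, with a log2 fold change of 0.82 (adjusted p 0.165).

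Gata4 and Gata6 encode zinc finger factors that can drive stem cells into the primitive endoderm fate when they are supplied from outside. Gata4 (ENSMUSG00000021944.15, chromosome 14, 63198922 to 63245271, minus strand) was at 9.0, 8.08 and 15.2 CPM in WT and at 26.8, 30.4 and 47.3 CPM in the knockout. It was the most abundant of the 5 factors per length in both genotypes, at 7.38 ± 2.41 TPM in WT and 23.4 ± 7.21 TPM in the knockout. Gata6 (ENSMUSG00000005836.10, chromosome 18, 11052470 to 11085635, plus strand) was at 3.11, 4.60 and 5.60 CPM in WT and at 10.7, 10.7 and 14.3 CPM in the knockout. The groups were separate for both genes, with 3.24-fold and 2.69-fold differences of the means. The Gata4 to Gata6 ratio per length was 2.18 ± 0.542 in WT and 2.56 ± 0.351 in the knockout, within the spread between libraries.

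Foxa2 encodes a forkhead factor that opens chromatin in endoderm, and it was the rarest of the 10 genes. Foxa2 (ENSMUSG00000037025.11, chromosome 2, 148042877 to 148046969, minus strand) had 6, 6 and 4 counts in the WT libraries and 20, 12 and 32 counts in the knockout libraries. Low counts in the table were mostly even, and whether the mates of a pair were counted singly is not given in the sources used here, so these counts may stand for fewer fragments. With all counts divided by 2, Foxa2 was too low to be tested. A level of 6 counts was taken as the floor, so the WT level was not distinguished from 0 and the knockout mean of 1.08 CPM was at least 3.71-fold higher. This was the least secure of the 9 differences together with that of Dab2. Foxa2 no longer passed when any 1 of the WT replicates or knockout replicate C was left out, in limma-voom, and without the A libraries. Its relatives Foxa1 (log2 fold change -0.37, adjusted p 0.618) and Foxa3 (-0.39, adjusted p 0.478) did not pass the test.

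Pdgfra encodes the alpha receptor for platelet-derived growth factor. Pdgfra (ENSMUSG00000029231.15, chromosome 5, 75152292 to 75198215, plus strand) was at 4.50, 7.17 and 8.5 CPM in WT and at 15.9, 15.9 and 24.9 CPM in the knockout, a 2.81-fold difference with separate groups. Its ligand gene Pdgfa was also higher, with means of 31.7 ± 3.68 CPM for WT and 44.3 ± 5.79 CPM for the knockout (edgeR adjusted p 0.0181, log2 fold change 0.48). The sister receptor Pdgfrb did not pass the test (log2 fold change 0.09, adjusted p 0.787). Of 8 tested PDGF ligands and related receptors, 3 were called higher (37.5%, against 7.60% of all tested genes) and 0 lower (against 5.71%), with a median log2 fold change of 0.25. An unadjusted p under 0.05 was reached by 4 of them. The other called genes were Flt4 (log2 fold change 1.28, adjusted p 1.0e-04) and Flt1 (0.74, adjusted p 0.00465), both receptors of vascular endothelial growth factors.

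The receptor complex of the yolk sac is built from cubilin, a large peripheral protein that binds ligands, amnionless, which anchors it in the membrane, and megalin, the product of Lrp2. RefSeq start sites on GRCm38.p6 were matched for 6 of the 10 genes. The windows of the complex and its adaptor are printed because Cubn, Amn and Dab2 were higher in the knockout and Lrp2 was not. Each window runs from 250 bases before to 50 bases after the start site, 5′ to 3′ on the gene's strand. Capitals mark matches on either strand to 7 short motifs. Those of GATA factors were AGATAA and, as the second form, TGATAA. For TCF and LEF factors the letters CTTTGAT were searched, and also the variant CTTTGAA. A forkhead motif (GTAAACA), a motif of SOX factors (AACAAT) and an E-box (CACGTG) completed the search. For Dab2, the first of its 2 windows is shown.
Cubn, chr2:13491827-13492126, minus strand: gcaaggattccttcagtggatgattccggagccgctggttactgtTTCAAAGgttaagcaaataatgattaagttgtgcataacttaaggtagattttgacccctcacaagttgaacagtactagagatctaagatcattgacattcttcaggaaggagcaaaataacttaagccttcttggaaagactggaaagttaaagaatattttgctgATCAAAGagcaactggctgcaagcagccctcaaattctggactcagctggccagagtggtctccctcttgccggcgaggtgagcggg
Amn, chr12:111270846-111271145, plus strand: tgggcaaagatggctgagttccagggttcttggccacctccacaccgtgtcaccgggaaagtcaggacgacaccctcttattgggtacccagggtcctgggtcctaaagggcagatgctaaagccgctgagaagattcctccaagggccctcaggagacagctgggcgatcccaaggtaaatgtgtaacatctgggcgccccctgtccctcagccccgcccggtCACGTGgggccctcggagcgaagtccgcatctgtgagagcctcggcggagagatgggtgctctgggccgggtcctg
Dab2, chr15:6299539-6299838, plus strand: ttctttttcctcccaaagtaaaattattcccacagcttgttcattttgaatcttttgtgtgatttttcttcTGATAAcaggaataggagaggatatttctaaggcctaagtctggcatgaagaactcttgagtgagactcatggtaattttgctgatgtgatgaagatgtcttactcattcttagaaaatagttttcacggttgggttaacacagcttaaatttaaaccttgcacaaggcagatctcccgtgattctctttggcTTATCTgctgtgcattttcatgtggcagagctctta
Lrp2, chr2:69585980-69586279, minus strand: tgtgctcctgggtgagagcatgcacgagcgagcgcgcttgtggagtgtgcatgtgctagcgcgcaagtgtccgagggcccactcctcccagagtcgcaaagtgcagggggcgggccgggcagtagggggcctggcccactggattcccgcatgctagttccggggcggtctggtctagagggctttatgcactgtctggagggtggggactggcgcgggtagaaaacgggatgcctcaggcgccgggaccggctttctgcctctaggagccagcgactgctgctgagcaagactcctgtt

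The Cubn window held CTTTGAT 37 bases and CTTTGAA 205 bases before the start site, both as their reverse complements. Of all 32851 windows of this length, 3.73% held CTTTGAT and 5.14% held CTTTGAA. The Dab2 window held TGATAA, found in 9.05% of all windows, and AGATAA, found in 11.2%. The Amn window held only CACGTG, found in 7.15% of all windows. No match to the 7 motifs was found in the Lrp2 window, in the other Dab2 window or in the Pdgfra window. Of 3 Foxa2 windows, 1 held AGATAA and CTTTGAT and the others held none. GTAAACA (3.65% of all windows) and AACAAT (10.7%) were found in none of the 9 windows. The GC content was 44.3% for Cubn, 62.3% for Amn, 37.7% for Dab2 and 65% for Lrp2, against a median of 52.7%. A match of letters is a description and shows no binding.

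Cubn (ENSMUSG00000026726.10, chromosome 2, 13276338 to 13491813) was at 18.6, 45.4 and 35.4 CPM in WT and at 62.7, 115 and 161 CPM in the knockout. The groups were separate and the means differed 3.41-fold, but the libraries of each genotype were spread 2.44-fold in WT and 2.57-fold in the knockout. Amn (ENSMUSG00000021278.7, chromosome 12, 111271095 to 111276426) was at 2.61, 5.36 and 4.30 CPM in WT and at 8.62, 8.17 and 12.7 CPM in the knockout, a 2.40-fold difference with separate groups. Dab2 (ENSMUSG00000022150.16, chromosome 15, 6299788 to 6440712) was at 11.6, 22.0 and 18.4 CPM in WT and at 19.7, 30.9 and 54.0 CPM in the knockout. Knockout replicate A lay below WT replicate B, so the Dab2 groups overlapped, and the means differed 2.01-fold. For Dab2 the test was no longer passed in DESeq2 or when any 1 library other than knockout replicate A was left out.

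Lrp2 (ENSMUSG00000027070.14, chromosome 2, 69424340 to 69586065) was the exception. It was at 137, 179 and 164 CPM in WT and at 65.0, 127 and 195 CPM in the knockout. Knockout replicates A and B were below every WT library and replicate C was above every one, so no direction was shared by the knockout libraries. Its log2 fold change (standard error 0.25) was -0.31. The value was 0.01 without knockout replicate A, -0.72 without knockout replicate C and -0.09 without both A libraries.

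Across the libraries of each genotype Cubn and Lrp2 had the same order of levels. The ratio of Cubn to Lrp2 per length was 0.200, 0.374 and 0.317 in WT and 1.42, 1.33 and 1.22 in the knockout. The knockout ratios were closer to each other than the levels, as Lrp2 differed 2.99-fold between knockout libraries and Cubn 2.57-fold. The ratio of Dab2 to Lrp2 was 0.338 ± 0.0627 in WT and 0.872 ± 0.0964 in the knockout. The ratio of Cubn to Amn was 1.2 ± 0.109 in WT and 1.71 ± 0.542 in the knockout, with overlapping libraries. Lrp2 was the most abundant of the 10 transcripts per length in WT (24.3 ± 3.12 TPM). In the knockout, Cubn (24.5 ± 10.6 TPM), Gata4 and Lrp2 (19 ± 9.48 TPM) came first, with overlapping libraries.

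**Figure D2:**
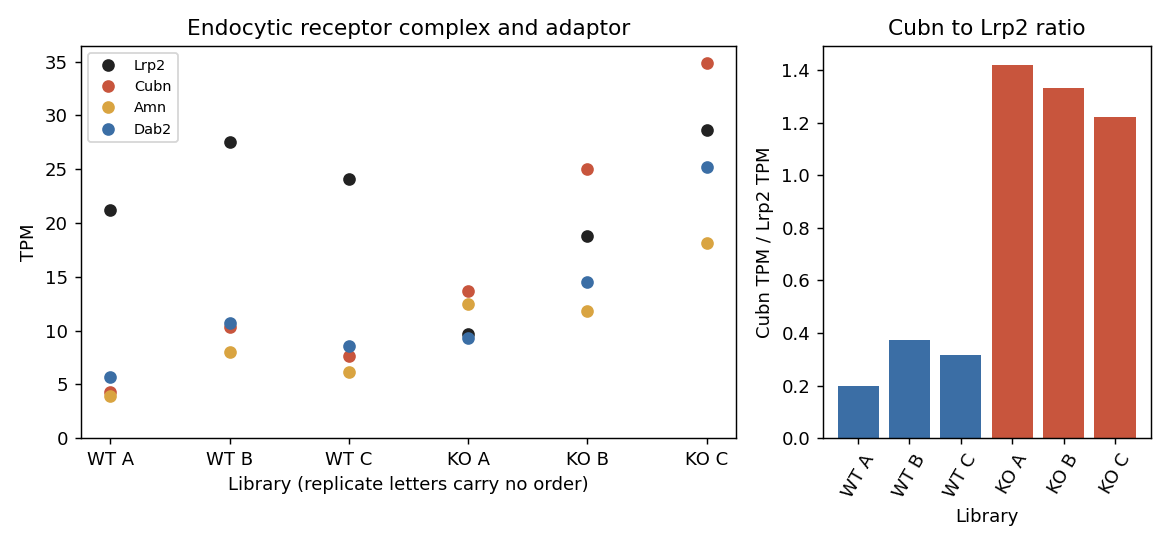
Left, level per length (TPM) of Lrp2, Cubn, Amn and Dab2 in each library. Right, the ratio of Cubn to Lrp2 TPM, which lies between 0.200 and 0.374 in WT libraries and between 1.22 and 1.42 in knockout libraries.

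Per length, the order of the 10 genes in WT was Lrp2, Dab2, Cubn, Gata4, Amn, Gata6, Sox7, Pdgfra, Sox17 and Foxa2. Only Lrp2 at the top and Foxa2 at the bottom were separate from their neighbours in all WT libraries. In the knockout the order was Cubn, Gata4, Lrp2, Dab2, Amn, Sox7, Gata6, Pdgfra, Sox17 and Foxa2. There the neighbours Gata6 and Pdgfra, and Sox17 and Foxa2, did not overlap, and all the others did. The percentile of the WT level among all tested genes ran from 1.10 for Foxa2 to 63.3 for Lrp2, so most of these genes were minor transcripts.

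The knockout libraries differed among themselves in a shared way. Knockout replicate C was the highest of the 3 knockout libraries for 10 of 10 genes, where this held for 31.2% of all tested genes. Replicate A was the lowest for 8 of 10, against 37.2% of all tested genes. In replicate C the level was at least 1.5 times that of replicate A for 7 of the 10 genes, and for 1738 of the 17325 tested genes. Over the WT mean, Sox7 was 3.23-fold, 4.21-fold and 6.16-fold higher in knockout libraries A, B and C, and Dab2 was 1.14-fold, 1.78-fold and 3.12-fold higher. WT replicate A was the lowest WT library for 7 of 10 genes, against 32.4% of all tested genes. Within each genotype, the library with liver and serum transcripts was therefore the one in which most of the 10 genes were lowest. Without both A libraries, 8 of the 10 genes were called higher, as were 1124 of all genes tested in that fit. The log2 fold changes were 2.0 for Sox17, 2.38 for Sox7, 1.74 for Gata4 and 1.77 for Cubn. For Gata6, Pdgfra, Dab2 and Amn they were 1.29, 1.38, 1.07 and 1.10.

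For 3 of the 10 genes the chromosome has to be read alongside, because chromosome 14 was raised and chromosome 1 lowered as a whole in the knockout. The median log2 fold change of the 620 other tested genes of chromosome 14 was 0.52, and 49.7% of them were called higher. That of the 1001 other tested genes of chromosome 1 was -0.33, with 1.70% called higher and 27.9% lower. The medians of chromosomes 2, 5, 12, 15 and 18 lay between -0.02 and 0.00.

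Sox7 had a log2 fold change of 2.18, which was 1.66 above the chromosome 14 median, or 3.15-fold. Of the 620 genes, 2 had a larger value. Gata4 had a log2 fold change of 1.70, which was 1.18 above the same median, or 2.26-fold, and 9 genes had a larger value. Sox17 went against its chromosome. Its log2 fold change of 2.15 was 2.48 above the chromosome 1 median, or 5.57-fold, and no other tested gene of chromosome 1 had a larger value. When each library's medians of chromosomes 1 and 14 were removed in the fit, the log2 fold changes were 2.46 for Sox17, 1.64 for Sox7 and 1.16 for Gata4 (standard errors 0.30, 0.29 and 0.24).

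The chromosome shifts were even across knockout libraries, while the levels of the 3 genes varied between libraries in both genotypes. Relative to the other autosomes, the chromosome 14 median was 0.55, 0.54 and 0.54 in knockout replicates A, B and C. Against the WT mean on the same log2 scale, Gata4 stood at 1.35, 1.52 and 2.17 and Sox7 at 1.70, 2.07 and 2.63. The chromosome 1 median was -0.33, -0.33 and -0.29, and Sox17 stood at 1.84, 2.01 and 2.49. In the WT libraries Sox17 ran from -0.61 to 0.50, Sox7 from -0.58 to 0.47 and Gata4 from -0.36 to 0.53. There the medians of chromosomes 1 and 14 lay between -0.01 and 0.01. Off these chromosomes, the difference from the chromosome median was 1.77 for Cubn, 1.52 for Pdgfra, 1.42 for Gata6, 1.27 for Amn and 1.02 for Dab2. Foxa2 has only its lower bound, given above. Lrp2 stood at -0.31, with 1084 of 1313 chromosome 2 genes above it.

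**Figure D3:**
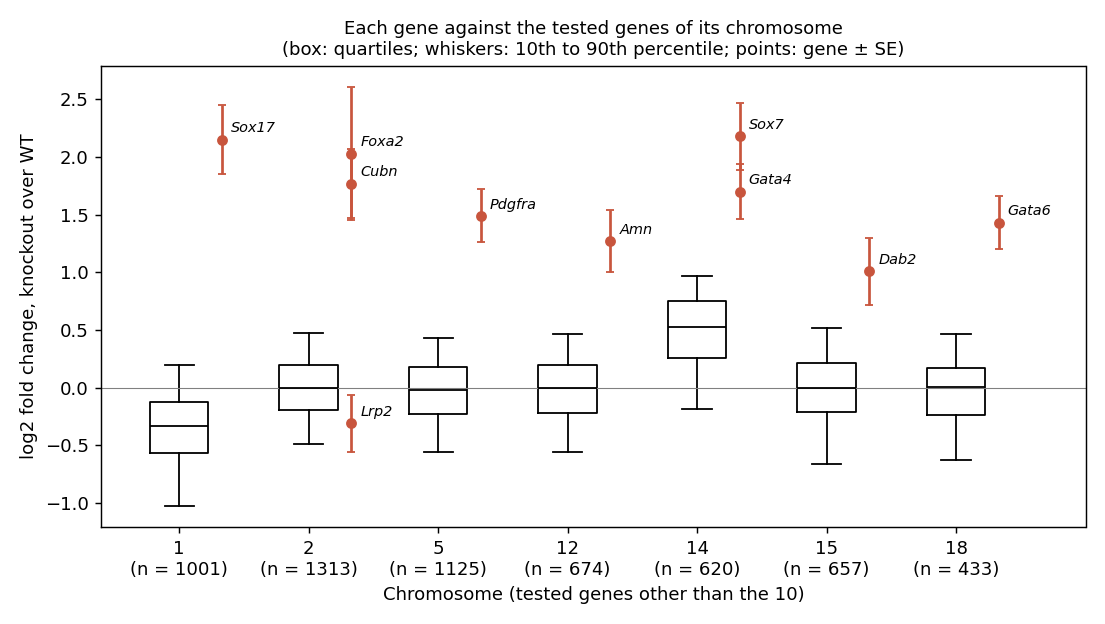
Log2 fold change of each of the 10 genes (points with standard error) beside the other tested genes of its chromosome (boxes for quartiles, whiskers from the 10th to the 90th percentile). Foxa2 is drawn at its fitted value, which is no measured fold because its WT counts are at the floor. Of the 10 points, 9 lie above the upper whisker of their chromosome, including Sox7 and Gata4 on the raised chromosome 14 and Sox17 on the lowered chromosome 1.

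Genes near Sox7, Gata4 and Sox17 were read for comparison. Within 1 Mb of Sox7 the median log2 fold change of 17 tested genes was 0.49, with 8 called higher and 1 lower. Within 1 Mb of Gata4 it was 0.47 over 17 genes, with 5 called higher and 1 lower. Sox7 and Gata4 lie 698 kb apart and are counted in each other's window. Without them the medians were 0.49 over 16 genes for Sox7 and 0.36 over 16 genes for Gata4, with 7 and 4 called higher. The genes next to them were not called, and their values lay below the chromosome 14 median of 0.52. Beside Sox7, the log2 fold change was 0.21 for Pinx1 at 23.8 kb (edgeR adjusted p 0.399) and 0.06 for Msra on the other side (adjusted p 0.895). Beside Gata4, it was 0.16 for Neil2 at 5.38 kb (adjusted p 0.644) and -0.44 for Fam167a (adjusted p 0.519).

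Among called neighbours on chromosome 14 were Ctsb, which encodes the lysosomal protease cathepsin B, Kif13b, a kinesin gene, and Mir124a-1hg, a microRNA host gene. They were named after their values were seen. Ctsb, 53.0 kb from Gata4, rose from a mean of 134 to one of 293 CPM (adjusted p 4.0e-05), a log2 fold change of 1.13, of which 0.58 was kept after the chromosome medians were removed (adjusted p 0.00657). For Kif13b the values were 0.66 (adjusted p 1.8e-04) before and 0.12 (adjusted p 0.468) after that step. For Mir124a-1hg they were 1.27 (adjusted p 9.4e-05) and 0.73 (adjusted p 0.00884). The called neighbours Fdft1 and Mtmr9, also named after their values were seen, lost their call at that step. Fdft1 went from 0.59 (adjusted p 7.8e-04) to 0.05 (adjusted p 0.802), and Mtmr9 from 0.49 (adjusted p 0.00268) to -0.05 (adjusted p 0.783). Defb30 was the gene called lower. It had 10 to 26 counts in WT and at most 1 in a knockout library, so it was at least 2.54-fold lower.

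Sox17 was the tested gene of lowest coordinate on chromosome 1. Of the 8 tested genes within 1 Mb, 3 were called lower and 0 higher, with a median log2 fold change of -0.42. For its nearest tested neighbour, Gm6123 at 274 kb, the log2 fold change of 0.23 did not pass (adjusted p 0.437). Mrpl15 (-0.49), Lypla1 (-0.50) and Tcea1 (-0.36) were the called neighbours, and after removal of the chromosome medians none of them passed (adjusted p 0.206, 0.256 and 0.823). Around Gata6, Foxa2 and Pdgfra no gene within 1 Mb was called, out of 10, 6 and 12 tested. Near the remaining genes, those called higher were Kif26a in the window of Amn (0.72, adjusted p 4.1e-04), Egflam in that of Dab2 (1.39, adjusted p 0.0306) and Gad1 in that of Lrp2 (0.93, adjusted p 0.0497). Among the 10 neighbours of Gata6, Abhd3 had the highest log2 fold change, 1.34 (adjusted p 0.0546). Vim, the vimentin gene 82.1 kb from Cubn, was called lower (log2 fold change -0.48, adjusted p 0.0249).

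**Figure D4:**
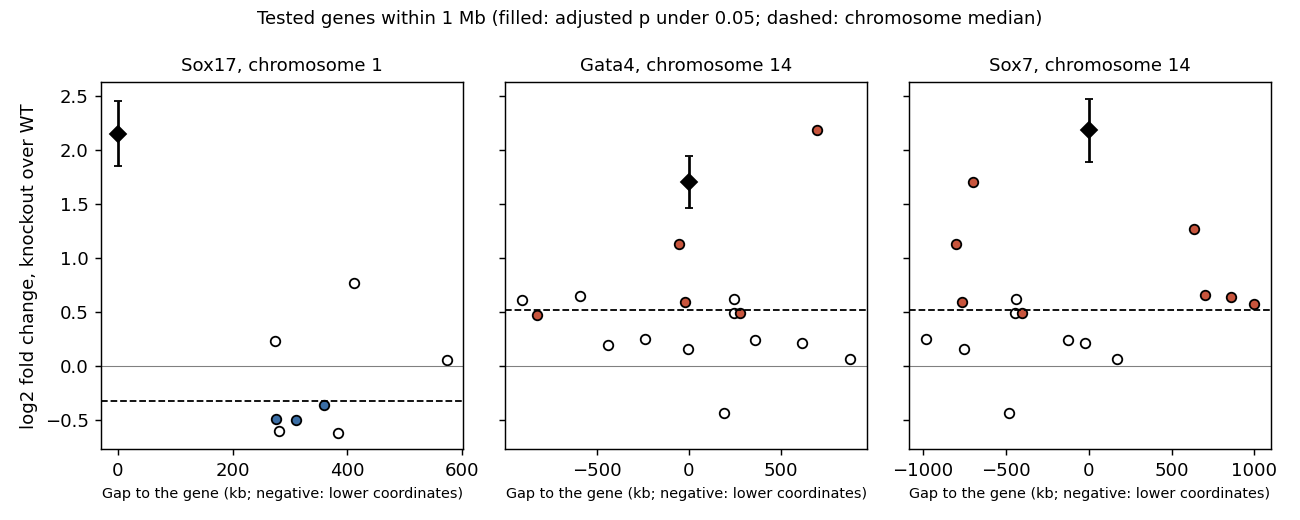
Log2 fold change of tested genes within 1 Mb of Sox17, Gata4 and Sox7 (diamonds with standard error), by gap to the gene in kb. Filled circles passed an adjusted p of 0.05, dashed lines are the chromosome medians of -0.33 and 0.52, and Defb30 at -5.09 lies outside the range drawn. Each diamond stands above the chromosome median and above its nearest neighbours.

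The other listed markers of extraembryonic endoderm, where they were called, were higher in the knockout. Of 32 listed genes, 27 were tested. Of these, 14 were called higher (51.9%, against 7.60% of all tested genes) and 0 lower (against 5.71%). An unadjusted p under 0.05 was reached by 21 of the 27. Their median log2 fold change was 0.73, against -0.007 over all tested genes. The list was chosen with earlier results of these data known, so these counts are a description only. Srgn, which encodes the proteoglycan serglycin, rose by 2.17 on the log2 scale, from 6.28 ± 2.77 to 28.1 ± 15.1 CPM (edgeR adjusted p 6.2e-04). Fst, which encodes the activin inhibitor follistatin, rose by 1.95, from 1.86 ± 0.222 to 7.17 ± 2.37 CPM (adjusted p 4.0e-04). The collagen IV genes Col4a2 (log2 fold change 1.85, adjusted p 8.2e-06) and Col4a1 (1.82, adjusted p 1.4e-05), whose products build basement membrane, rose about equally. Apoe, the most abundant of the list per length, also rose (0.55, adjusted p 5.3e-04).

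Markers of mature visceral endoderm were not among those that rose. Afp had at most 2 counts in any library, and Apob (log2 fold change -0.48, adjusted p 0.296) and Rbp4 (-0.10, adjusted p 0.891) did not pass the test. Apoa1 was at 6.08 CPM and 5.97 CPM in the 2 A libraries and at most 0.900 CPM elsewhere, and Ttr was at 3.15 CPM and 1.38 CPM against at most 0.101 CPM. These 5 genes were named after their values were seen. Knockout replicate C was the highest knockout library for 19 of the 27 tested genes of the list, as it was for the 10 genes above. Without both A libraries, 17 genes of the list were called higher, beside 1124 of all genes tested in that fit.

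**Figure D5:**
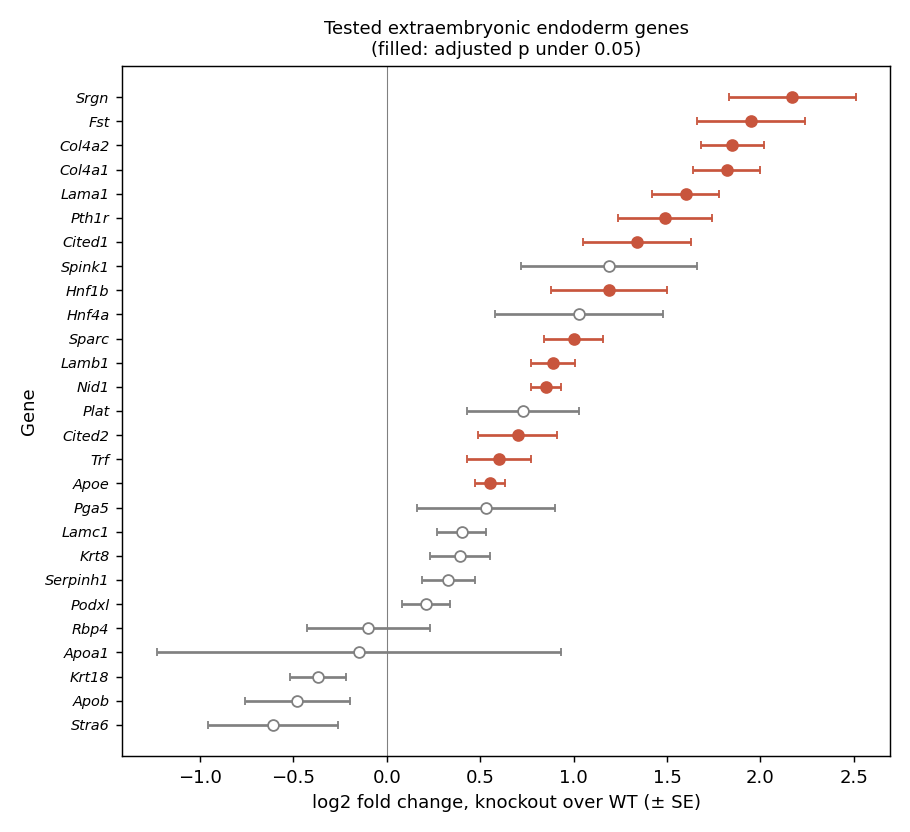
Log2 fold change with standard error of the 27 tested genes of the extraembryonic endoderm list, sorted. The 14 filled points passed an adjusted p of 0.05 and all lie above 0, from Apoe at 0.55 to Srgn at 2.17.

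Definitive endoderm markers were called in both directions. Of 14 tested genes, 2 were called higher (14.3%, against 7.60% of all tested genes) and 4 lower (28.6%, against 5.71%), with 7 at an unadjusted p under 0.05 and a median log2 fold change of -0.30. Otx2, a head and epiblast factor, went from 31.9 ± 5.40 to 6.03 ± 2.94 CPM, a log2 fold change of -2.39 (edgeR adjusted p 4.2e-05), although it lies on chromosome 14. Trh (log2 fold change -2.14), Prdm1 (-1.36) and Lefty1 (-1.11) were the others called lower. Lefty1 lies on the lowered chromosome 1 and kept -0.79 after removal of the chromosome medians (edgeR adjusted p 0.0306). Mixl1, Cxcr4 and Lefty2 lie there too, so the list median includes the shift of that chromosome. Nodal (0.54, adjusted p 0.0278) and its co-receptor gene Tdgf1 (0.63, adjusted p 1.8e-04) were called higher. Tdgf1 is also among the stem cell markers above, where the same rise is counted. Cer1, a defining gene of anterior endoderm, had 0 counts in every library, and Eomes, Gsc and Mixl1 did not pass the test.

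Among relatives of the factors, 2 of 11 tested genes were called higher (18.2%, against 7.60% of all tested genes) and 0 lower (against 5.71%), with 6 at an unadjusted p under 0.05 and a median of 0.20. Gata2 rose by 0.80 on the log2 scale, from 8.93 ± 1.39 to 15.5 ± 1.12 CPM (adjusted p 0.00440). Foxd3 only just passed (0.63, adjusted p 0.0494) and overlapped between groups. Gata1 (0.83, adjusted p 0.119) and Gata3 (-0.25, adjusted p 0.792) did not pass.

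FGF signalling is the input that turns cells of the early embryo toward primitive endoderm. Of 14 tested genes of this input, 3 were called higher (21.4%, against 7.60% of all tested genes) and 0 lower (against 5.71%), with 5 at an unadjusted p under 0.05 and a median of 0.04. Etv4 (log2 fold change 0.63, adjusted p 0.00175), Spry2 (0.50, adjusted p 0.0374) and the ligand gene Fgf4 (0.29, adjusted p 0.0352) were those called. Spry2 lies on chromosome 14 and had a log2 fold change of -0.04 after removal of the chromosome medians. The receptor gene Fgfr2 stayed at 3.40 to 5.85 CPM in all 6 libraries.

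Of 13 tested genes of the receptor family to which Lrp2 belongs and its chaperones, 4 were called higher (30.8%, against 7.60% of all tested genes) and 0 lower (against 5.71%), with 6 at an unadjusted p under 0.05 and a median of 0.21. Lrp1, a large endocytic receptor like megalin, rose by 1.05 on the log2 scale, from 197 ± 18.2 to 407 ± 21.4 CPM (adjusted p 5.2e-06). Lrp10 rose by 0.91 (adjusted p 3.2e-05) and, on chromosome 14, kept 0.37 after removal of the chromosome medians (adjusted p 0.0282). Mesd, a chaperone gene for this family, rose by 0.55 (adjusted p 0.00103). Lrpap1, the chaperone gene for megalin, did not pass (0.39, adjusted p 0.109).

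Of 25 tested adaptor and coat genes of clathrin uptake, 3 were called higher (12%, against 7.60% of all tested genes) and 0 lower (against 5.71%), with 10 at an unadjusted p under 0.05 and a median of 0.11. Among them were Cltb, a clathrin light chain gene (0.44, adjusted p 0.0210), and Ap2a2, a gene of the AP-2 adaptor (0.36, adjusted p 0.00854). Dab1, the relative of Dab2, did not pass (0.40, adjusted p 0.147), nor did the clathrin heavy chain gene Cltc (0.18, adjusted p 0.143). Of 8 tested genes for ligands of cubilin and megalin, 2 were called higher (25%, against 7.60% of all tested genes) and 0 lower (against 5.71%), with 3 at an unadjusted p under 0.05 and a median of 0.12. They were Clu (0.71, adjusted p 0.00179) and Trf, the transferrin gene (0.60, adjusted p 0.0327). Clu lies on chromosome 14 and lost its call when the chromosome medians were removed (0.17, adjusted p 0.460).

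Several of the 10 genes also mark other cell types, so markers of those types were read beside them. Of 26 tested genes in the lists of mesoderm and heart, endothelium, trophoblast and fibroblasts, edgeR called 0 higher and 3 lower, against 7.60% and 5.71% of all tested genes. At an unadjusted p under 0.05, 1 was higher (Tal1, log2 fold change 0.88, adjusted p 0.0948, with every knockout library above WT) and 4 were lower. DESeq2 and limma-voom called 0 endothelial genes higher, and the fit without knockout replicate A called 1. Mesoderm and heart genes (9 tested) had a median log2 fold change of -0.51 with 0 called and 0 at an unadjusted p under 0.05, and a summed level of 35.6 to 42.0 TPM in WT and 25.7 to 34.8 TPM in the knockout. Endothelial genes (7 tested) summed to 78.2 to 82.5 TPM and 52.0 to 67.9 TPM, most of it Pecam1, which was called lower (-0.57, adjusted p 0.00755). At an unadjusted p under 0.05 the list held 3 genes, Pecam1, Tal1 and Kdr (-1.16, adjusted p 0.116). Flt1 and Flt4, receptor genes that endothelium also uses, were called higher as given above with the PDGF receptors. Emcn had 0 counts in every library and Cdh5 was at most 0.706 CPM. Trophoblast genes (6 tested) summed to 88.4 to 96.1 TPM and 40.6 to 55.5 TPM, most of it Tfap2c. Tfap2c was called lower (-1.06, edgeR adjusted p 2.5e-05), and no other gene of this list was called. Fibroblast genes (5 tested) summed to 18.6 to 29.9 TPM and 13.9 to 22.7 TPM, with Col1a1 called lower (-1.48, adjusted p 9.1e-04). Col3a1 was at 5.13 CPM and 2.32 CPM in the A libraries and at most 1.0 CPM in the others.

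The genes whose pattern over the 6 libraries was closest to the mean pattern of the 10 were Gm2830, Lama1, Ankrd33b, Tgfbr2 and Wnt11. Likeness was the root mean square difference of centred log2 CPM, and it ran from 0.0845 for Gm2830 to 0.168 for Wnt11. Among the 10 genes themselves it ran from 0.119 for Pdgfra to 0.960 for Lrp2. Lama1, which encodes a laminin chain of the embryonic basement membrane, was at 125, 160 and 174 CPM in WT and at 339, 430 and 622 CPM in the knockout. These 5 genes lie on chromosomes 13, 17, 15, 9 and 7.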

How the data were processed

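RNA of 6 libraries, 3 per genotype, was sequenced after TRIzol extraction with a directional library kit, per the labels' protocols. The authors deposited raw counts per gene with exon coordinates and exon length, per the file headers. The submitters' processing notes name cutadapt 2.10, STAR 2.7.5b, featureCounts 2.0.1 and the build GRCm38. The strand setting is not given in the sources used here. Of the exon bases, 5.20% in Pdgfra and 3.27% in Cubn, and 0 in the other 8 genes, lie under a gene of the opposite strand, and those genes had at most 5 counts in a library. Symbols came from GENCODE M21.

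The analysis used edgeR 4.0.16 in R 4.3.3. filterByExpr (smallest count 10, smallest total 15) left 17325 genes. TMM scaling and a quasi-likelihood fit with genotype as the only term followed, with Benjamini-Hochberg adjustment over all tested genes and a threshold of 0.05. Standard errors are the absolute log2 fold change divided by the root of F. Levels are TMM-scaled CPM, or TPM from the deposited exon length. Low counts were mostly even (78.1% to 83.1% of counts from 1 to 10), so the floor was set at 6 counts, 0.262 to 0.332 CPM in a library. It covers counting error only, and a count may stand for less than 1 fragment, since the treatment of mates is not given in the sources used here. For the median of a chromosome in a library, the mean count had to reach 100, log2 CPM had a prior count of 2, and the 10 genes were left out. The fit was tested on simulated data.

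The 10 genes and the lists were chosen with earlier results of these data known. Named were the 10 genes, in each list up to 4 called genes per direction with the largest changes and the most abundant gene, the nearest tested genes of Sox17, Sox7 and Gata4, and the 5 genes of closest pattern with a mean of at least 50 counts. Others named in passing, among them Sox18, Foxa1, Foxa3, Pdgfrb, Dab1 and the pluripotency genes, were chosen after their values were seen. Some called genes of the receptor and adaptor lists are not reported here. Of the listed genes, 1 (Cblif) was not matched. Alternatives were 3 other scalings, 2 other filters, DESeq2 1.42.0, limma-voom (limma 3.58.1), a replicate block, 6 fits without 1 library, removal of chromosome medians and halved counts. The fit without both A libraries was added after the data were seen.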

Additional observations from a re-analysis of the deposited data

How the results depend on the processing

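Over 17 alternative fits the number of the 10 genes called higher ranged from 7 to 9, and that of all tested genes from 842 to 1703. Sox17, Sox7, Gata4, Gata6, Pdgfra, Cubn and Amn stayed called in all of them. Foxa2 had too few counts to be tested under 2 of the alternatives. The log2 fold change of Lrp2 was 0.01 without knockout replicate A, the reverse of its main sign, and it passed the threshold in 1 fit, with no filter on low counts (-0.28, adjusted p 0.0497). The number of all genes called was 1374 without WT replicate A and 1470 without WT replicate B, against 2307, and over the 6 fits without 1 library it ranged from 1374 to 2784. In the same 6 fits Lrp2 ranged from -0.72 to 0.01, and the extraembryonic endoderm list gave 11 to 17 genes called higher. The median log2 fold change of neighbours within 0.5 Mb was -0.49 for Sox17, 0.24 for Sox7 and 0.25 for Gata4, and within 2 Mb of Sox7 it was 0.53. Deviations from the group means correlated at 0.16 for A, -0.15 for B and 0.40 for C over 11371 genes. Between libraries of unlike letters the correlations ran from -0.39 to 0.26. With so few libraries per genotype, these values cannot settle whether the letters pair the libraries, and both A libraries shared liver and serum transcripts. With the replicate block, 2686 genes in all and 9 of the 10 were called. In the small lists single calls came and went, for example 1 to 4 genes called higher for FGF input and 2 to 5 for stem cell markers. Levels near the floor, as for Foxa2, limit what depth can show.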
